A study of Mus musculus with 34 samples.

Results

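Rab GTPases are the largest family of small GTPases that direct membrane traffic, and 42 genes of the family were found among the 9851 gene symbols listed for sorted colonic macrophages of the mouse. A gene was counted as a member when its symbol was Rab followed by a number, with or without 1 further letter or digit. The first experiment listed 41 of the 42 members, the rescue experiment 38 and the neutrophil-depletion experiment 39, and 36 were listed in all 3. Together the members took 0.408% to 0.550% of the signal of each library.

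A Rab protein switches between a GTP-bound form on a membrane and a GDP-bound form in the cytosol. Guanine nucleotide exchange factors (GEFs) load GTP, GTPase-activating proteins (GAPs) of the TBC family end the active state, and prenyl groups added with the help of escort proteins anchor the protein. Active Rabs recruit effectors such as motor adaptors, tethers and lipid kinases, and each Rab marks a compartment. In macrophages the route of interest runs from the phagosome and the early endosome to the lysosome, with recycling and secretory branches.

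The study profiled messenger RNA of macrophages sorted from the colonic lamina propria of C57BL/6 mice as CD45+CD11b+CD11cintCD64+Ly6c-CD103- cells, in 34 libraries of 10 groups. The series title states that IL-10Rα-deficient gut macrophages were studied. IL-10 is a cytokine that restrains gut macrophages, and p19 is the name of a subunit of the cytokine IL-23. In the first experiment untreated mice aged 6 to 7 weeks gave 3 libraries titled IL10R and 3 titled CXhet. The rescue experiment used mice of the same age. It holds 4 libraries titled 5C5_IL10R_abx and 3 titled IL10R_littermate_abx, both from mice given antibiotics in the drinking water, and 4 titled 5C5_IL10R_P19, 5 titled 5C5_IL10R and 2 titled CX, all from untreated mice. In the neutrophil-depletion experiment bone marrow chimeras were sampled 4 weeks after chimerism, with 3 libraries titled ko_ly6g, 3 titled ko_igg and 4 titled wt. The treatment label of those 10 libraries names an anti-ly6g antibody for each of them, so their groups were taken from the titles. The labels do not spell out 5C5, CX, CXhet or the littermates' genotype, name no Cre driver, and leave unsaid whether each library of a group is from its own animal. P-values therefore measure the spread between libraries, which may be technical.

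Reads of the listed genes could be recovered for 32 libraries and ranged from 747046 to 4525047. Il10ra, the gene of the IL-10 receptor alpha chain, was lower in the deficient groups with 1 exception. In the first experiment Il10ra stood at 9.26, 361 and 65.9 in IL10R libraries 1, 2 and 3. CXhet libraries were at 689, 501 and 371, so the library labelled IL10R 2 lies next to the lowest of them. Il23a, the gene of p19, was 58.2, 54.4 and 45.9 in the same IL10R libraries, against 10.3, 2.80 and 1.39 in CXhet libraries. In the rescue experiment Il10ra was at most 31.2 in IL10R_abx, IL10R_P19 and IL10R libraries, against at least 138 in littermate_abx and CX libraries. It was 32.2 to 65.1 in ko_ly6g and 77.9 to 111 in ko_igg libraries, against 247 to 827 in wt libraries. Of 14 macrophage markers 12 were listed, and they summed to 0.584% to 3.53% of the signal of a library. All 19 epithelial markers were listed too, although the sort was for CD45+ cells, and they summed to 0.289% to 2.67%. In bulk samples fewer cells of a type and less RNA per cell cannot be told apart.

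Values are normalized signal, reads divided by 1 size factor per library, and they are not scaled to gene length, so levels are compared between libraries and never between genes. Genes in the lowest 25% by mean signal of an experiment were not tested. Of the members, 32 were tested in the first experiment, 29 in the rescue experiment and 32 in the chimeras. In all, 33 members were tested somewhere, 9 nowhere, and 19 were called at a Benjamini-Hochberg adjusted p under 0.05 from limma in at least 1 comparison. A low gene that passed through the group where it is high had to differ, so the counts describe the tested members and not the family.

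The members that moved with antibiotics in both pairs of groups were Rab7b, Rab31 and Rab8b, which rose, and Rab15, Rab25 and Rab3d, which fell. The mouse promoter windows of the 4 of them with exactly 1 window in RefSeq (GRCm38.p6) are shown as the sequence context of these results, 250 bases upstream of the start, each read on the minus strand. Rab15 has 4 windows and Rab7b none in that table. By symbol 37 of the 42 members were matched after windows on 1 chromosome were left out, so another unmatched member may still have a window. Capitals mark matches to any of 4 motifs chosen, like the windows, after the values were seen, on either strand: GAGGAA, the core of the PU.1 box; TTCNNNGAA, the STAT site; CACGTG, the E-box of the lysosomal CLEAR element; and TTTATG, the site of intestinal CDX factors.
Rab31 at chr17:65772753-65773002: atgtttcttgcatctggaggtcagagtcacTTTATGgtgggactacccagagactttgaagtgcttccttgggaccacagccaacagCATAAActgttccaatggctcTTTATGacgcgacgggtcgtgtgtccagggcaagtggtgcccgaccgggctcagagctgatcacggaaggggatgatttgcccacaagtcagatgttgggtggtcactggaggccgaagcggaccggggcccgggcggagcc
Rab8b at chr9:66919706-66919955: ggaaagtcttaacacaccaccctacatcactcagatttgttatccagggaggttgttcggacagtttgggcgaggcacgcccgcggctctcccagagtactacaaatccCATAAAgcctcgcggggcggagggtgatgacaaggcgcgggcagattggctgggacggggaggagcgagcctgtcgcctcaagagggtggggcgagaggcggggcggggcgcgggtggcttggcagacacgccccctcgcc
Rab25 at chr3:88548280-88548529: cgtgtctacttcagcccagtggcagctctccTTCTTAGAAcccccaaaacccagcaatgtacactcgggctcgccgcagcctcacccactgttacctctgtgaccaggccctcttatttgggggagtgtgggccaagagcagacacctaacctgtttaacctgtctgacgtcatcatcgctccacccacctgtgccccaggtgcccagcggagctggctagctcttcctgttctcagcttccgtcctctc
Rab3d at chr9:21918184-21918433: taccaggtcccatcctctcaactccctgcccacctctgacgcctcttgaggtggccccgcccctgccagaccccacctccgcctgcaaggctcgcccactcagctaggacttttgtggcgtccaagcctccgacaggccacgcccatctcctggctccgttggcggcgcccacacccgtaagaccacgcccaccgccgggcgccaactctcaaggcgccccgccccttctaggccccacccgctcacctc
The window of Rab31 holds 3 matches to TTTATG, 1 of them on the other strand, and that of Rab8b holds 1. That of Rab25 holds 1 match to TTCNNNGAA. The 4 motifs in the order given above occur in 23.3%, 7.02%, 6.02% and 10.8% of the 32851 windows of the table, and in 7, 5, 3 and 6 of the 48 windows of members. These matches are letters in a window and not sites of binding.

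Most calls among Rab genes came from the comparison of IL10R_abx with IL10R macrophages. There 10 of the 29 tested members rose and 7 fell by limma, against 57.8% of all tested genes called, 30.6% higher and 27.3% lower. The family was thus called about as often as genes at large. The groups did not overlap for 14 of the 29 members, against 42.1% of all genes. The median change of its tested members was 0.15 on the log2 scale, against 0.03 for all genes. When libraries were rescaled to equal totals, 7 members rose and 9 fell and Rab5c, Rab9 and Rab14 were no longer called. All genes then split into 1531 higher and 2392 lower in place of 2020 and 1803, and the median of all genes moved to -0.17. Between littermate_abx and CX macrophages, which share no library with the first pair, 3 members rose and 3 fell, against 34% of all genes called, 16.5% higher and 17.5% lower. The groups did not overlap for 18 of the 29 members, against 62.1% of all genes. Rescaling gave 775 higher and 1420 lower in place of 1094 and 1156 for all genes of that pair, with 3 members higher and 4 lower. Of the 29 members, 24 (82.8%) had the same sign in both pairs, against 83.9% of all tested genes. In both pairs 6 members (20.7%) were called, all with the same sign, against 31.2% of all tested genes, so neither share of the members was above that of genes at large.

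**Figure D1:**
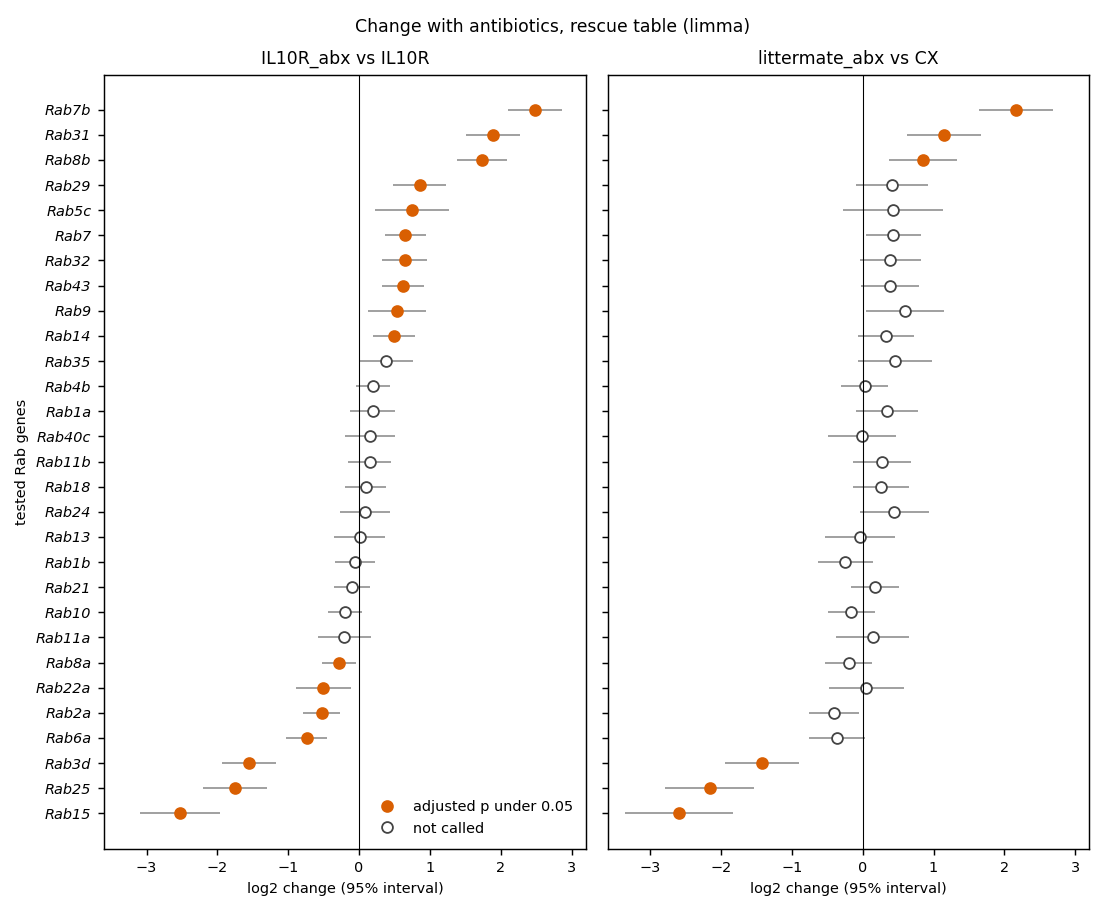
Log2 change of the 29 tested Rab genes with its 95% interval from limma, IL10R_abx over IL10R on the left and littermate_abx over CX on the right, with filled points at adjusted p under 0.05. Rab7b, Rab31 and Rab8b lie at the top and Rab15, Rab25 and Rab3d at the bottom of both panels.

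Late endosome and phagosome members were led by Rab7b, which directs traffic between late endosomes and the trans-Golgi network. Rab7b stood at 1561, 1450, 1294 and 1315 in the 4 IL10R_abx libraries, against 246, 282, 219, 202 and 315 in the 5 IL10R libraries. In the other pair it stood at 1408, 1191 and 1205 in littermate_abx libraries, against 297 and 265 in CX libraries. Each antibiotic library was above each untreated one in both pairs. The log2 change was 2.48 ± 0.18 (SE; limma adjusted p = 3.31e-09) in the first pair and 2.17 ± 0.25 (adjusted p = 8.08e-06) in the second.

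The 4 other members of this class that were tested include Rab7, which drives fusion with the lysosome, Rab9, which acts in return from late endosomes to the Golgi, and Rab32, which serves lysosome-related organelles. Rab7 was 505, 536, 409 and 400 in IL10R_abx libraries, against 326, 260, 292, 279 and 302 in IL10R libraries, without overlap and 0.65 ± 0.14 higher (SE; limma adjusted p = 0.000403). Rab32 was 189, 162, 173 and 126 in IL10R_abx libraries, against 133, 104.7, 92.6, 97.2 and 90.1 in IL10R libraries, with IL10R_abx_497 below the highest IL10R library, and it rose by 0.64 (limma adjusted p = 0.00114). Rab9 was 172, 166, 74.6 and 104.7 in IL10R_abx libraries, against 84.5, 97.5, 83.6, 75.9 and 78.8 in IL10R libraries. Its rise of 0.54 (limma adjusted p = 0.0228) rested on overlapping libraries, with IL10R_abx_495 below every IL10R library. Without IL10R_abx_160 it was 0.38 (adjusted p = 0.109) and without IL10R_abx_161 it was 0.39 (adjusted p = 0.0921). None of Rab7, Rab9 and Rab32 passed the test between littermate_abx and CX macrophages.

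Of the early endosome members, Rab31, a relative of Rab5 that acts between the trans-Golgi network and endosomes and in phagosomes, had the largest rise of the 4 tested. It stood at 196, 203, 187 and 195 in IL10R_abx libraries, against 39.0, 46.7, 46.6, 57.0 and 78.0 in IL10R libraries. In littermate_abx libraries Rab31 stood at 200, 226 and 196, against 92.2 and 93.4 in CX libraries. The groups did not overlap in either pair, and the log2 change was 1.89 ± 0.18 (SE; limma adjusted p = 6.67e-08) and 1.15 ± 0.25 (adjusted p = 0.00147).

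Rab5c and Rab22a, both of early endosomes, went opposite ways between IL10R_abx and IL10R macrophages. Rab5c was 627, 591, 320 and 214 in IL10R_abx libraries, against 221, 201, 213, 295 and 269 in IL10R libraries. Libraries IL10R_abx_160 and IL10R_abx_161 were high and IL10R_abx_497 lay inside the range of the IL10R libraries, and the rise was 0.75 ± 0.25 (SE; limma adjusted p = 0.0144). It was 0.53 without IL10R_abx_160 and 0.56 without IL10R_abx_161, with adjusted p-values of 0.0719 and 0.0621. Rab22a was 69.6, 43.3, 71.2 and 82.6 in IL10R_abx libraries, against 83.2, 86.1, 108, 103 and 85.3 in IL10R libraries, and fell by 0.51 on the log2 scale (limma adjusted p = 0.0251). Without IL10R_abx_161 that fall was -0.31 with an adjusted p of 0.119, and the call also ended without IL10R_61 or IL10R_67, at -0.45 and -0.47.

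Recycling and plasma membrane members split. Rab8b, which carries cargo to the cell surface, stood at 100, 126, 125 and 118 in IL10R_abx libraries, against 28.6, 32.1, 30.2, 35.7 and 48.3 in IL10R libraries. In the second pair it stood at 100, 92.1 and 102 in littermate_abx libraries, against 64.2 and 44.98 in CX libraries. Both pairs were free of overlap. Rab8b rose by 1.74 ± 0.17 (SE; limma adjusted p = 7e-08) in the first pair and by 0.86 ± 0.23 (adjusted p = 0.00714) in the second, where the change was 0.60 with an adjusted p of 0.134 without CX 3. Its close relative Rab8a was 259, 190, 266 and 240 in IL10R_abx libraries, against 269, 298, 271, 320 and 287 in IL10R libraries, and fell by 0.28 (limma adjusted p = 0.0458), a call that ended without the filter, in a fit on these groups alone, and without any of IL10R_32, IL10R_67, IL10R_68, IL10R_abx_161 and IL10R_abx_497.

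Rab25 is an epithelial relative of Rab11 that recycles cargo to the apical surface. It stood at 95.8, 190, 86.5 and 130 in IL10R_abx libraries, against 343, 427, 425, 431 and 405 in IL10R libraries. In littermate_abx libraries Rab25 was 70.2, 142 and 72.7, against 399 and 413 in CX libraries. Every antibiotic library was lower than every untreated one, and the log2 change was -1.75 ± 0.22 (SE; limma adjusted p = 1.53e-06) and -2.16 ± 0.30 (adjusted p = 3.45e-05).

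Rab15 acts in early and recycling endosomes, and among the tested members its fall had the largest estimate in both pairs. Rab15 was 21.8, 41.4, 30.5 and 13.5 in IL10R_abx libraries, against 126, 147, 156, 142 and 167 in IL10R libraries. It was 16.5, 9.48 and 21.1 in littermate_abx libraries, against 104.6 and 87.1 in CX libraries. The groups were far apart in both pairs, with log2 changes of -2.52 ± 0.27 (SE; limma adjusted p = 2.45e-07) and -2.60 ± 0.37 (adjusted p = 3.97e-05). Its means of 26.8 in IL10R_abx and 15.7 in littermate_abx libraries were under the filter's limit of 40.4. Rab15 was thus tested only through the untreated groups, where it is high, and had to differ. Rab14, of the Golgi, endosomes and phagosomes, was 827, 750, 1141 and 1084 in IL10R_abx libraries, against 649, 598, 724, 712 and 644 in IL10R libraries, and rose by 0.49 ± 0.14 (SE; limma adjusted p = 0.00523) without overlap.

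Among secretory vesicle members Rab3d, which docks granules for release, was tested and fell. Rab3d was 102, 120, 98.3 and 97.0 in IL10R_abx libraries, against 226, 295, 318, 350 and 365 in IL10R libraries. It was 87.8, 135 and 71.6 in littermate_abx libraries, against 272 and 240 in CX libraries. Again no antibiotic library reached an untreated one, and the log2 change was -1.55 ± 0.18 (SE; limma adjusted p = 6.77e-07) and -1.42 ± 0.25 (adjusted p = 0.000254).

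Rab27a and Rab27b, which tether secretory granules, were under the filter in the rescue experiment and were tested only with the filter removed. Rab27a was 17.4, 5.64, 10.2 and 17.3 in IL10R_abx libraries, against 80.6, 58.1, 48.0, 61.5 and 50.7 in IL10R libraries. Rab27b was 4.35, 1.88, 13.6 and 5.77 in IL10R_abx libraries, against 31.2, 39.4, 40.5, 44.0 and 65.2 in IL10R libraries. The value of 1 read was 2.18, 1.88, 1.70 and 0.961 in those IL10R_abx libraries, in the same order, so the low values rest on few reads. Unfiltered log2 changes were -2.25 (limma adjusted p = 8.96e-07) and -2.81 (adjusted p = 2.96e-06), and both genes were also called lower without the filter between littermate_abx and CX macrophages, at -1.47 and -2.62. Rab6b, a Golgi Rab known mainly from neurons, went the other way at 30.5, 31.97, 32.2 and 37.5 in IL10R_abx libraries, against 6.50, 7.26, 4.80, 3.04 and 9.65 in IL10R libraries, an unfiltered change of 2.30 (limma adjusted p = 4.27e-06).

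**Figure D2:**
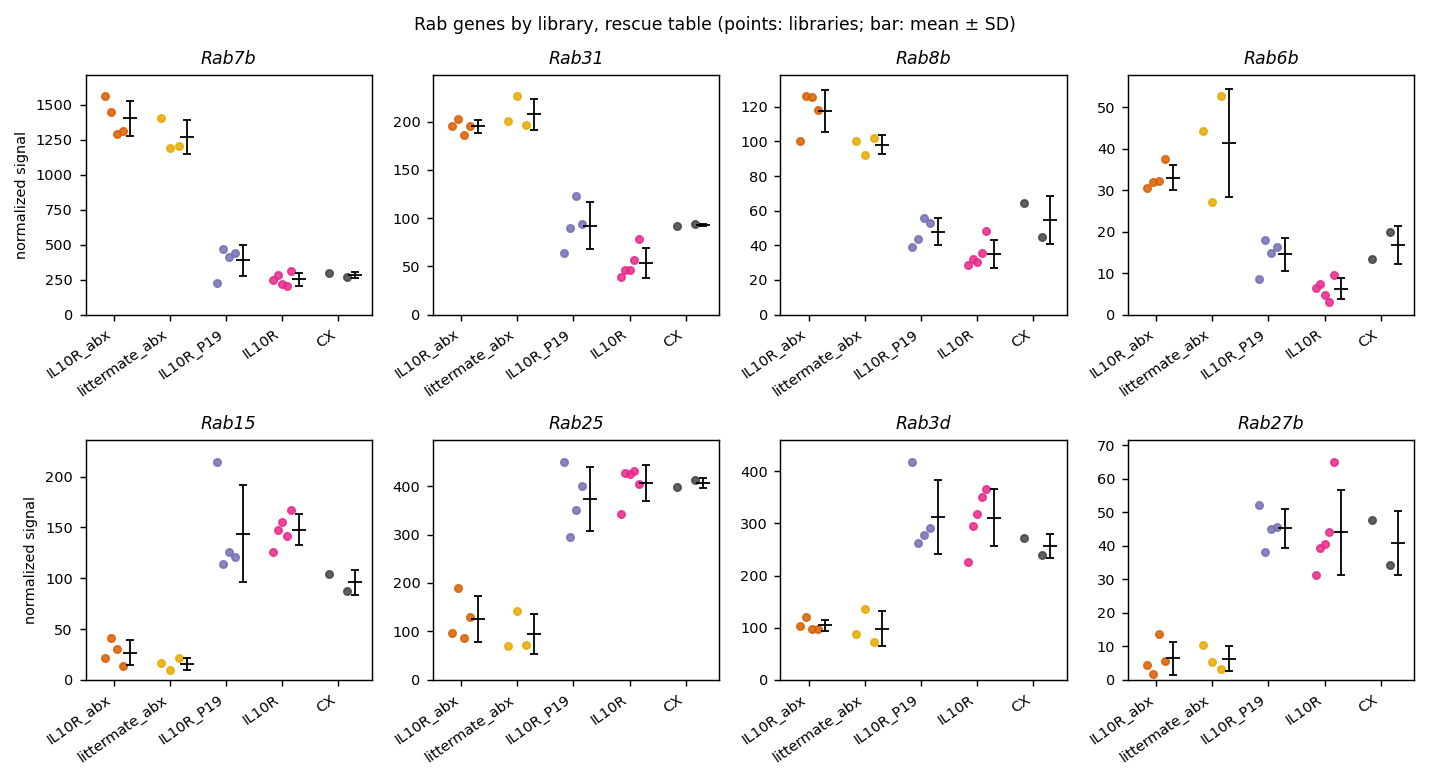
Normalized signal of 8 Rab genes in each library of the rescue experiment, with the mean ± SD of each group beside its points. Rab7b, Rab31, Rab8b and Rab6b lie higher and Rab15, Rab25, Rab3d and Rab27b lower in the IL10R_abx and littermate_abx groups than in the IL10R and CX groups.

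Of 6 tested endoplasmic reticulum and Golgi members, 1 rose and 2 fell between IL10R_abx and IL10R macrophages, beside 30.6% of all genes higher and 27.3% lower. Rab6a, which acts in transport at the Golgi, was 185, 143, 222 and 221 in IL10R_abx libraries, against 333, 310, 296, 346 and 304 in IL10R libraries, and fell by 0.74 ± 0.14 (SE; limma adjusted p = 0.000149). Rab2a, of the route between endoplasmic reticulum and Golgi, was 420, 354, 292 and 283 in IL10R_abx libraries, against 494, 503, 431, 500 and 479 in IL10R libraries, and fell by 0.53 (limma adjusted p = 0.00124). Rab43, a Golgi Rab, was 346, 365, 315 and 274 in IL10R_abx libraries, against 257, 186, 213, 197 and 202 in IL10R libraries, and rose by 0.62 (limma adjusted p = 0.00106). None of these 3 had overlapping groups. Rab29, linked to lysosomes and the Golgi, was 67.5, 75.2, 50.9 and 48.0 in IL10R_abx libraries, against 28.6, 34.2, 30.2, 33.4 and 36.2 in IL10R libraries, and rose by 0.85 (limma adjusted p = 0.000395). Its means of 32.5 in IL10R, 37.0 in CX and 39.2 in IL10R_P19 libraries were under the filter's limit of 40.4. Rab29 was thus tested only through the antibiotic groups, where it is high, and had to differ. The 12 other tested members, namely Rab1a, Rab1b, Rab4b, Rab10, Rab11a, Rab11b, Rab13, Rab18, Rab21, Rab24, Rab35 and Rab40c, were not called in this pair.

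Markers of macrophages and of other cells moved along with these genes. All 19 epithelial markers were called lower in IL10R_abx than in IL10R macrophages and 18 of 19 in littermate_abx than in CX macrophages, with median log2 changes of -2.11 and -2.03. Their summed share was 0.319% to 0.524% in IL10R_abx and 0.289% to 0.439% in littermate_abx libraries, against 1.71% to 2.10% in IL10R and 1.63% to 1.79% in CX libraries. Macrophage markers ran the other way, with 12 of 12 and 7 of 12 called higher and medians of 1.68 and 0.68. Their share was 2.38% to 3.09% in IL10R_abx and 2.80% to 3.07% in littermate_abx libraries, against 0.931% to 1.24% in IL10R and 2.07% to 2.08% in CX libraries. Of 5 tested stromal and endothelial markers, 4 were called lower in the first pair and 2 in the second, with medians of -0.99 and -1.10. Of 12 T and NK cell markers only Cd4 was listed, and it was called higher in both pairs. The 1 tested dendritic cell marker was called higher in the first. Of 3 tested B and plasma cell markers, 2 were called higher and 1 lower in the first pair and 0 in the second, and of 2 tested neutrophil markers 1 was called higher in each pair. Rab15, Rab25 and Rab3d were low in the antibiotic libraries, where the epithelial share was low. Rab7b and the macrophage share were both highest in the antibiotic libraries. In both CX libraries Rab7b lay inside the range of the IL10R libraries. The macrophage share of CX was above that of every IL10R library. The part of any of these sets in the changes of Rab genes was not tested.

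**Figure D3:**
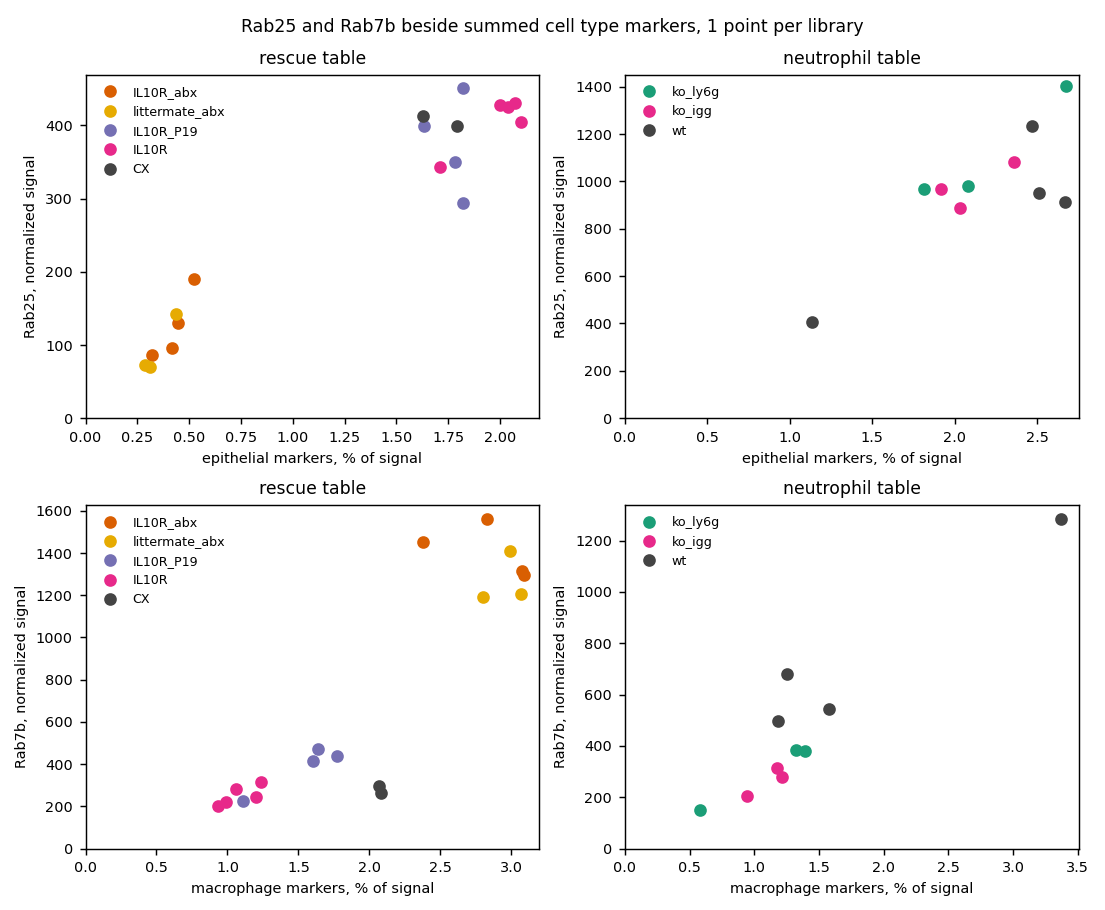
Normalized signal of Rab25 against the summed share of 19 epithelial markers (upper row) and of Rab7b against that of 12 macrophage markers (lower row), 1 point per library, rescue experiment on the left and neutrophil-depletion experiment on the right. Libraries from mice given antibiotics form a cluster of their own, and wt 1, at 1.13% epithelial and 3.37% macrophage markers, stands apart from the other wt libraries.

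The genotype comparison under antibiotics gave no Rab call. Between IL10R_abx and littermate_abx macrophages limma called 0 of 29 members, against 0.0302% of all genes. An unadjusted limma p under 0.05 was found for 3 members and for 997 of 6612 genes. DESeq2 and edgeR also called 0. Without IL10R_abx_497 limma called 1 member, and the count of all genes called in that fit is not given here. The limma test of whether the IL10R effect differed with and without antibiotics called 0 members, against 0.106% of all genes. In it 2 members and 699 of 6612 genes had an unadjusted p under 0.05. The smallest adjusted p of a member was that of Rab8b, at 0.216. By edgeR and DESeq2 0 members were called as well. Rab31 differed between IL10R_abx and littermate_abx macrophages by -0.09, and its IL10R effect with antibiotics was 0.74 ± 0.31 (SE; limma adjusted p = 0.39) above that without.

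Without antibiotics Rab31 was called in 3 comparisons, and Rab10 and Rab22a in 2 each. In the first experiment limma called 2 of 32 members between IL10R and CXhet macrophages, against 8.69% of all genes, and 13 of 32 did not overlap between groups, against 32.4% of all genes. Rab31 stood at 157, 141 and 137 in IL10R libraries, against 238, 253 and 210 in CXhet libraries, and fell by 0.68 ± 0.17 on the log2 scale (SE; limma adjusted p = 0.0409). Rab32 stood at 267, 324 and 334 in IL10R libraries, against 174, 169 and 138 in CXhet libraries, and rose by 0.94 ± 0.18 (limma adjusted p = 0.0155). Both were free of overlap, with the library labelled IL10R 2 on the same side as the others. Without that library the Rab31 change was -0.66 with an adjusted p of 0.076, and leaving out any other single library also ended the Rab31 call, with changes of -0.75 to -0.62. The Rab32 call ended without CXhet 2, CXhet 3 or IL10R 3, at 0.83 to 0.98. Neutrophil markers summed to 0.0196% to 0.0278% of the signal in IL10R libraries, against 0.00457% to 0.00686% in CXhet libraries, and 2 of 3 tested were called higher, with a median log2 change of 1.51. Of 17 tested epithelial markers 1 was called lower, with a median of -0.47, and their share was 0.481% to 0.852% in IL10R libraries, against 0.756% to 1.53% in CXhet libraries. Of 12 macrophage markers 1 was called higher and 0 lower, with a median of -0.02. Of 2 tested dendritic cell markers 1 was called higher, as was 1 of 5 tested stromal and endothelial markers. Cd4 and the B and plasma cell markers gave 0 calls. The part of any of these sets in the Rab31 and Rab32 changes was not tested.

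In the rescue experiment limma called 1 of 29 members between IL10R and CX macrophages, against 9.91% of all genes. All genes were split into 256 higher and 399 lower, and into 385 and 333 after rescaling to equal totals. The member was again Rab31, at 39.0, 46.7, 46.6, 57.0 and 78.0 in IL10R libraries, against 92.2 and 93.4 in CX libraries, with a change of -0.82 ± 0.23 (SE; limma adjusted p = 0.0268). The IL10R libraries all lay below both CX libraries, and the adjusted p was 0.211 without CX 1, 0.155 without CX 3 and 0.0569 without IL10R_32. In this pair macrophage markers were lower too, with 10 of 12 called and a median of -1.03 on the log2 scale. Of 3 tested B and plasma cell markers 2 were called lower, as were Cd4 and the 1 tested dendritic cell marker. Of 19 epithelial markers 1 was called higher, and of the tested stromal, endothelial and neutrophil markers 0 were called. The part of any of these sets in the Rab31 change was not tested. Rab32, which was higher in IL10R libraries of the first experiment, averaged 103 in IL10R and 111 in CX libraries here and was not called. 

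Between IL10R_P19 and IL10R macrophages limma called 1 of 29 members, against 2.43% of all genes, and it was Rab31. Rab31 stood at 63.5, 89.4, 122 and 93.5 in IL10R_P19 libraries, against 39.0, 46.7, 46.6, 57.0 and 78.0 in IL10R libraries. IL10R_P19_100 lay below the highest IL10R library, so the groups overlapped, and the rise was 0.78 ± 0.18 (SE; limma adjusted p = 0.0277). The adjusted p was 0.0661 in a fit on these groups alone, and the call ended without IL10R_27, IL10R_32, IL10R_61, IL10R_67, IL10R_P19_105, IL10R_P19_106 or IL10R_P19_107. Between IL10R_P19 and CX macrophages limma called 0 members, against 0.0302% of all genes. An unadjusted limma p under 0.05 was found for 0 members and for 333 of 6612 genes. DESeq2 and edgeR also called 0, and Rab31 differed by -0.05 ± 0.24 (SE). The IL10R libraries are shared by the comparisons with CX, IL10R_P19 and IL10R_abx, so a low value there enters all 3. Of the macrophage markers, 6 of 12 were called higher in IL10R_P19 than in IL10R macrophages. Cd4 and the 1 tested dendritic cell marker were called higher too, and the other tested marker sets gave 0 calls. The part of any of these sets was not tested.

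**Figure D4:**
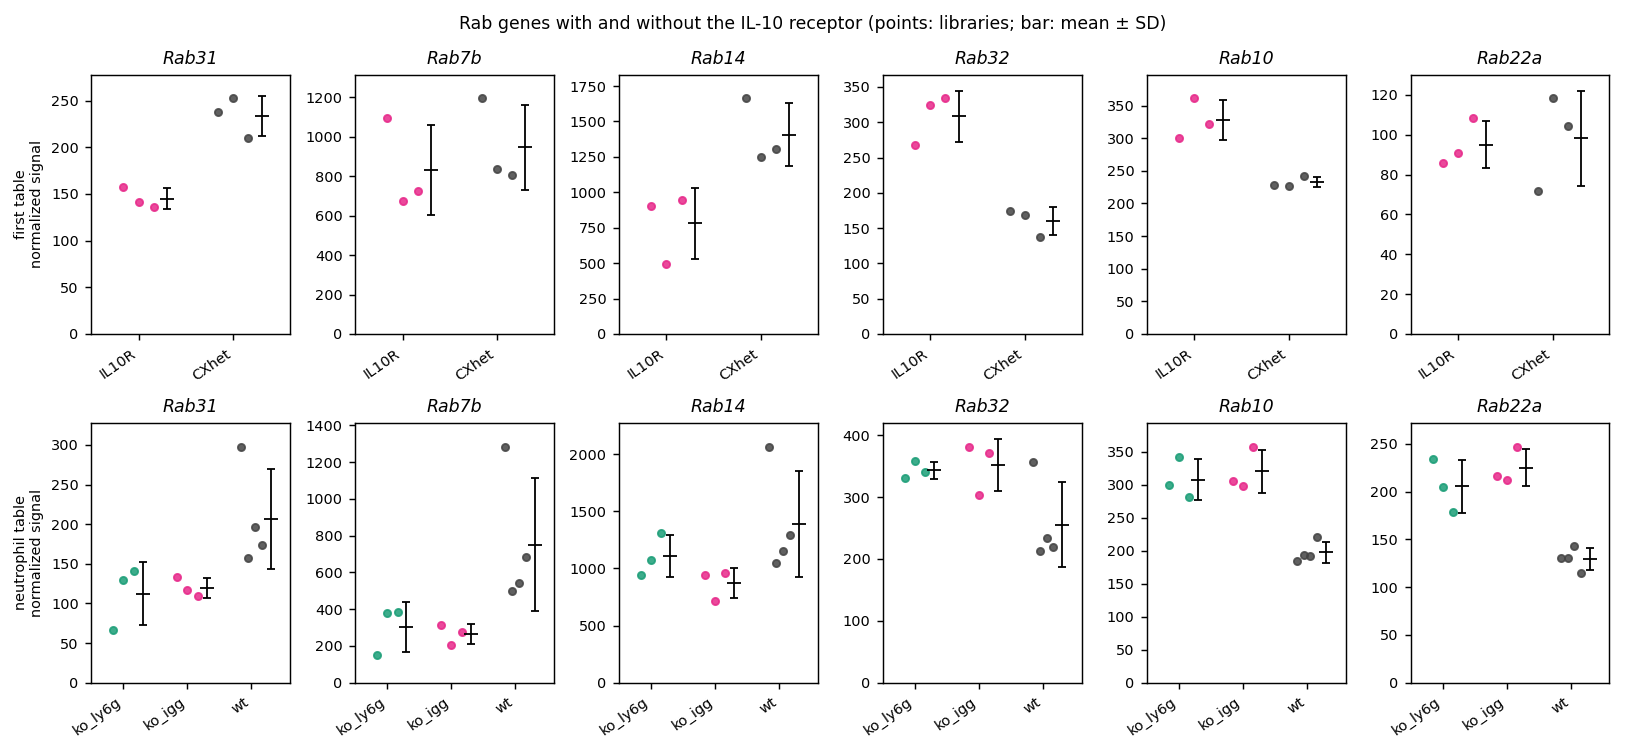
Normalized signal of 6 Rab genes in each library of the first experiment (upper row, IL10R and CXhet) and of the neutrophil-depletion experiment (lower row, ko_ly6g, ko_igg and wt), with the mean ± SD of each group beside its points. Rab31 and Rab14 lie lower and Rab32 and Rab10 higher in IL10R than in CXhet libraries, and Rab10 and Rab22a lie higher in ko_ly6g and ko_igg than in wt libraries.

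In the chimeras limma called 3 of 32 members between ko_igg and wt macrophages, all higher, against 9.19% of all genes called and 5.73% called higher. The groups did not overlap for 9 of 32 members, against 28.6% of all genes. Rab10, which directs exocytosis and endoplasmic reticulum shape, stood at 306, 298 and 357 in ko_igg libraries, against 185, 193, 192 and 220 in wt libraries, a rise of 0.69 ± 0.15 (SE; limma adjusted p = 0.016). Rab22a stood at 217, 212 and 247 in ko_igg libraries, against 131, 130, 143 and 115 in wt libraries, a rise of 0.79 ± 0.16 (adjusted p = 0.0117). Rab35, of fast recycling, stood at 306, 289 and 346 in ko_igg libraries, against 176, 225, 215 and 205 in wt libraries, a rise of 0.61 ± 0.15 (limma adjusted p = 0.0332). No wt library reached a ko_igg library for any of the 3. All 3 calls ended with edgeR on recovered reads and without ko_igg 14. Rab10 and Rab35 also ended without ko_igg 16, ko_igg 18 or wt 3, and Rab35 without wt 4.

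Rab7b and Rab31 were lower in ko_igg than in wt libraries without passing the test. Rab7b was 314, 205 and 278 in ko_igg libraries, against 1283, 495.9, 544 and 681 in wt libraries, a difference of -1.41 (limma adjusted p = 0.0504). Rab31 was 134, 116 and 109 in ko_igg libraries, against 298, 157, 196 and 174 in wt libraries, a difference of -0.74 (adjusted p = 0.129). Macrophage markers had a median log2 change of -0.66 with 1 of 12 called lower, and summed to 0.946% to 1.21% of the signal in ko_igg libraries, against 1.18% to 3.37% in wt libraries. Of 3 tested neutrophil markers 1 was called higher, and the other tested marker sets gave 0 calls. The part of any of these sets in both differences was not tested. Library wt 1, which held the highest macrophage share and 1028567 recovered reads, was the highest wt library for both genes. Without it limma called 6 members, 5 higher and 1 lower: Rab10, Rab22a, Rab24, Rab32 and Rab35 rose and Rab7b fell. The count of all genes called without wt 1 is not given here, so the larger count of members is no result about the family.

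The libraries titled ko_ly6g gave no call against those titled ko_igg. Neutrophil markers summed to 0.00676% to 0.0516% of the signal in ko_ly6g and to 0.0096% to 0.0404% in ko_igg libraries, and 0 of 3 tested were called. Between ko_ly6g and ko_igg macrophages limma called 0 of 32 members, against 0% of all genes, and 0 members and 127 genes had an unadjusted p under 0.05; edgeR and DESeq2 on recovered reads also called 0. Between ko_ly6g and wt macrophages it called 2 of 32, against 4.34% of all genes, and the wt libraries are shared with the ko_igg comparison. Rab10 was 300, 341 and 281 in ko_ly6g libraries, against 185, 193, 192 and 220 in wt libraries, and rose by 0.63 (limma adjusted p = 0.0392). Rab22a was 234, 205 and 178 in ko_ly6g libraries, against 131, 130, 143 and 115 in wt libraries, and rose by 0.66 (limma adjusted p = 0.0426). Neither call held with edgeR, in a fit on these groups alone, or without wt 2, wt 3, wt 4 or any 1 of the ko_ly6g libraries. In the first experiment Rab10 was 0.49 higher in IL10R than in CXhet macrophages (limma adjusted p = 0.094) and Rab22a differed by -0.02. In the rescue experiment Rab10 averaged 228 in IL10R and 225 in CX libraries. Rab22a averaged 93.1 and 70.4 there, and neither gene was called between those groups.

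**Figure D5:**
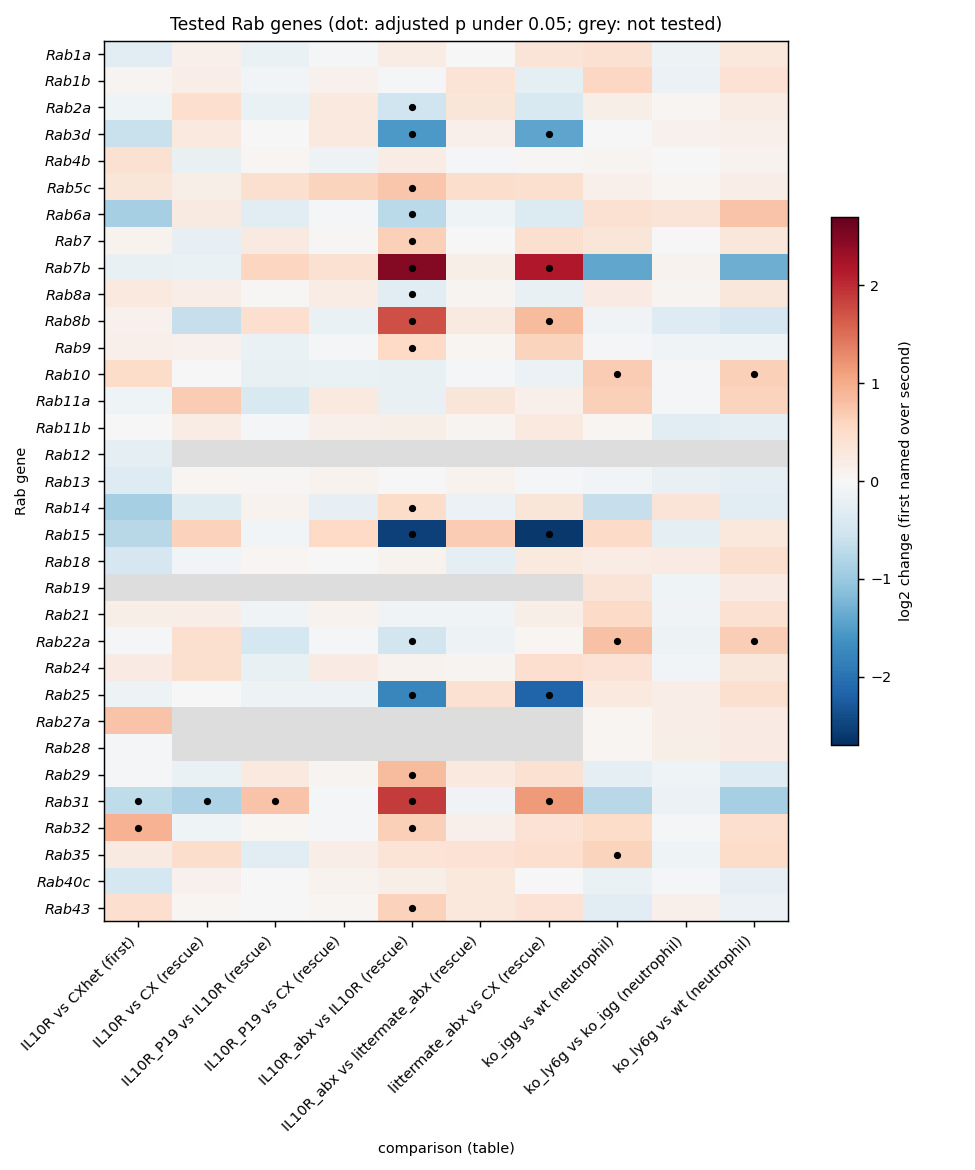
Log2 change of the 33 Rab genes tested in at least 1 experiment, in 10 comparisons, the first named group over the second, with a dot at limma adjusted p under 0.05 and grey where a gene was not tested. Dots gather in the IL10R_abx over IL10R column, and the Rab31 row has dots in 5 columns.

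Genes that load, switch off and read Rab proteins were followed on lists of GEFs, GAPs, prenylation and GDI proteins, and effectors. Between IL10R_abx and IL10R macrophages 15 of 34 tested GEF genes rose and 10 fell, 11 of 17 GAP genes rose and 2 fell, 4 of 13 prenylation and GDI genes rose and 2 fell, and 15 of 33 effector genes rose and 6 fell, beside 30.6% of all genes higher and 27.3% lower. Median log2 changes were 0.31, 0.57, -0.21 and 0.23 in that order, so for prenylation and GDI genes the median had the other sign from the balance of calls. Between littermate_abx and CX macrophages the counts were 12 higher and 3 lower, 8 and 2, 0 and 3, and 12 and 4, beside 16.5% of all genes higher and 17.5% lower. Of 18 Arf, Arl and Sar GTPases, a related family, 6 rose and 2 fell in the first pair, and 2 rose and 2 fell in the second. These counts are a description, and no list was tested against genes at large.

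The GEF gene Rab3il1 averaged 363 in IL10R_abx and 72.3 in IL10R libraries, a rise of 2.33 (limma adjusted p = 8.6e-09). Dennd5a, a GEF gene of the DENN family, averaged 207 in IL10R_abx and 58.0 in IL10R libraries, and rose by 1.80 (adjusted p = 3.17e-08). The TBC gene Tbc1d14 rose by 1.32 and Tbc1d2 fell by 1.59 on the log2 scale. Mlph, which links Rab27a to the motor Myo5a, fell by 2.90 (limma adjusted p = 5.72e-07), while Myo5a rose by 2.31 (adjusted p = 1.96e-08).

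Rab11fip5, an effector of Rab11, was called in 5 comparisons, as Rab31 and Myo5a were. Rab11fip5 was also called in the test of the antibiotic effect on the IL10R effect. It averaged 138 in IL10R and 396 in CXhet libraries of the first experiment, a change of -1.51 ± 0.22 (SE; limma adjusted p = 0.00501). In the rescue experiment it averaged 378 in IL10R_abx, 385 in littermate_abx, 132 in IL10R_P19, 70.5 in IL10R and 177 in CX libraries. Its change was -1.34 for IL10R over CX, 0.91 for IL10R_P19 over IL10R, 2.43 for IL10R_abx over IL10R and 1.12 for littermate_abx over CX, each called by limma. Its IL10R effect was 1.31 ± 0.24 (SE; limma adjusted p = 0.0426) higher with antibiotics than without. That call ended under equal totals, at an adjusted p of 0.0518, and without 12 of the 14 single libraries. The Myo5a changes had the same signs as those of Rab11fip5 in the 5 comparisons. Its call for IL10R over CXhet held in 2 of 6 fits with 1 library left out. Rab3il1 was called in the same comparisons except IL10R over CXhet.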

How the data were processed

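The authors deposited 3 tables of normalized signal per gene, which are read counts divided by 1 size factor per library. Per the submitters' processing notes, bcl2fastq, HISAT 0.1.6, HOMER and the mm9 build were used. For annotation, strand and multi-mapping reads the settings were not given in the sources used here. Per the extract protocol in the labels, messenger RNA was captured with oligo(dT) beads and amplified linearly with T7 polymerase.

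Each table was fitted on log2(signal + pseudocount) in limma 3.58.1 under R 4.3.3, where variances followed a trend on the mean and were moderated robustly. The pseudocounts were 1.309, 0.9967 and 0.9825 for the first, rescue and neutrophil-depletion experiments. Genes in the lowest 25% of mean signal were left out, and all groups of a table entered 1 fit. P-values were adjusted by the Benjamini-Hochberg method over the 6766, 6612 and 6594 genes tested. Changes are on the log2(signal + pseudocount) scale, which understates those of low genes.

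Values are whole multiples of 1 step per library, with all values under 300 reads whole to within 0.01 reads, so reads were recovered for edgeR 4.0.16 and DESeq2 1.42.0 as alternatives. Libraries ko_igg 16 and wt 3 were whole as well, but have 91 and 84 values of at most 20 reads, under the 100 required to accept the recovery, and stayed out of these alternatives. No replicate pair agreed within sampling noise (smallest chi-square per degree of freedom 3.59 over the libraries with recovered reads). The fit was tested on simulated data.

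Members and lists were chosen with earlier results of these data known. Members called in a comparison are given in full, and of the lists up to 4 called genes with the smallest adjusted p. Alternatives were another pseudocount of 10, no filter, equal totals, TMM factors, edgeR, DESeq2, a fit on the compared groups and each library left out. RefSeq promoter windows are of GRCm38.p6 and were matched by symbol only.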

Additional observations from a re-analysis of the deposited data

Results flagged for a closer look

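Over 76 pairs of a called Rab gene and a group of 4 or 5 libraries, 1 library stood far from the others in 5, at a limit that chance passes in about 1 of 20 pairs. All 5 came from 2 libraries, so they are not independent. Library wt 1 was low for Rab15, at 77.4 against 313 to 326 in the other wt libraries, and low for Rab3d, at 289 against 636 to 671. The same library was high for Rab32, at 357 against 213 to 233. Epithelial markers summed to 1.13% of the signal of wt 1, against 2.47% to 2.67% in the other wt libraries. Macrophage markers summed to 3.37%, against 1.18% to 1.58%, and the part of either set in these values was not tested. Library IL10R_P19_100 was low for Rab14, at 607 against 736 to 762, and high for Rab15, at 215 against 114 to 126.

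Rab6a differed in sign between the 2 experiments that set IL10R beside a control. Its log2 change was -0.89 for IL10R over CXhet in the first experiment and 0.25 for IL10R over CX in the rescue experiment, with no overlap of libraries in either and no call in either, and the difference between experiments was not tested. Rab11fip5 was the listed effector called by limma for an IL10R effect that differed with antibiotics, by 1.31 on the log2 scale. That call ended under equal totals and held in 2 of 14 fits with 1 library left out.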

How the results depend on the processing

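For 52 pairs of a named gene and a comparison, 766 values were recomputed under other settings: 645 kept their direction and call, 121 kept their direction and lost the call, and 0 reversed. In the first experiment the numbers of the libraries did not pair them (same-number correlations of -0.0581, 0.151 and 0.354), and a replicate block gave 4 Rab calls in place of 2 and 808 genes in place of 588. Between IL10R and CX macrophages the count of 1 became 2 without the filter, 3 with equal totals, 3 with DESeq2 and 4 in a fit on these groups. For IL10R_P19 over IL10R it became 2 with DESeq2 and 0 in a fit on the groups compared, and for littermate_abx over CX it became 10 in place of 6 without the filter. For ko_igg over wt the 3 calls became 0 with edgeR, and for ko_ly6g over wt the 2 calls became 1 with equal totals, 0 with edgeR and 0 in a fit on the groups compared. The edgeR fits lack ko_igg 16 and wt 3, and limma on the same 8 libraries, an alternative added after seeing the data, also gave 0 and 0. Counts over all genes moved by over 1.5 times too: from 588 to 947 with DESeq2 for IL10R over CXhet, from 655 to 1101 with DESeq2 and 1093 in a fit on the groups for IL10R over CX, from 2.43% of genes to 287 genes with edgeR and 450 with DESeq2 for IL10R_P19 over IL10R, from 2 to 9 with DESeq2 and 6 in a fit on the groups for IL10R_P19 over CX, from 2 to 45 with DESeq2 for IL10R_abx over littermate_abx, from 606 to 56 with edgeR for ko_igg over wt, and from 286 to 56 with edgeR and 96 in a fit on the groups for ko_ly6g over wt. For the antibiotic effect on the IL10R effect 7 genes became 0 with equal totals, 24 with edgeR, 100 with DESeq2 and 16 in a fit on the groups. Leaving out 1 library gave 0 to 3 calls for IL10R over CXhet, 0 to 2 for IL10R over CX, 0 to 2 for IL10R_P19 over IL10R, 13 to 19 for IL10R_abx over IL10R, 6 to 7 for littermate_abx over CX, 0 to 1 for IL10R_abx over littermate_abx, 0 to 6 for ko_igg over wt and 0 to 3 for ko_ly6g over wt. Counts of all genes with 1 library left out are not given here, so these ranges describe the members only. The filter on low signal kept 9 members of the first experiment untested, 9 of the rescue experiment and 7 of the chimeras.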
